A study of Mus musculus with 9 samples.

Results

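A group of 10 genes of neutrophils and activated myeloid cells, namely Ngp, Camp, Ltf, S100a8, S100a9, Csf3r, Retnlg, Clec4d, Clec4e and Acod1, was followed in the livers of mice fed an atherogenic (Ath) diet, with and without treadmill training. They were taken by symbol, and all 10 were found among the 17846 genes listed for each liver. RNA sequencing of whole liver covered 9 wild-type (WT) male mice, labelled C57/BL and named C57BL/6 in the study's methods, 3 in each group, with 1 library per mouse. The Control group received normal chow and stayed sedentary, the NASH group received the Ath diet, which contains cholesterol and cholate, and stayed sedentary, and the NASH+Exercise group received the Ath diet with treadmill running. Running began at 20 weeks of age, after 12 weeks of the diet, and lasted 8 weeks while the diet went on. NASH is non-alcoholic steatohepatitis, a fatty liver with inflammation, which the diet is used to model, and no mouse on chow was trained, so an effect of training without the diet was not measured. The replicate numbers are those of the individual mice and do not pair mice across groups.

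Neutrophils are short-lived phagocytes that mature in the bone marrow in stages and are recruited from the blood into inflamed liver. During maturation they fill a series of granules in order: primary granules hold proteases and peroxidase, and the later specific granules hold Ngp (neutrophilic granule protein), Camp (the cathelicidin antimicrobial peptide) and Ltf (lactoferrin, which binds iron). S100a8 and S100a9 form calprotectin, the calcium- and zinc-binding protein that fills the neutrophil cytosol and that activates Toll-like receptor 4 and RAGE when released. Csf3r is the receptor for granulocyte colony-stimulating factor, the cytokine that drives neutrophil production, and Retnlg is a secreted resistin-like protein of mouse neutrophils. Clec4d (MCL) and Clec4e (Mincle) are C-type lectin receptors that pair with the Fc receptor gamma chain and sense glycolipids and material from dying cells. Acod1 is induced in activated macrophages and neutrophils, where it makes itaconate from an intermediate of the citric acid cycle. Monocytes and macrophages can also express S100a8, S100a9, Csf3r, the lectins and Acod1, while Ngp, Camp and Ltf are the members most restricted to developing granulocytes.

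The promoters of 5 members, chosen to cover the granule proteins, both calprotectin subunits, the lectins and Acod1, are printed because these genes rose together in the diet-fed livers. Each is the stretch of 250 bases before the gene start in RefSeq, build GRCm38.p6, on the strand of the gene. All 10 members had an entry in the promoter table, but that of Csf3r precedes a start inside the gene span given below rather than the span's first base, and it held none of the motifs searched. Capitals mark matches on either strand to TTGCNNAA, a form of the C/EBP motif, to GAGGAAGT, the PU.1 motif, or to TATAAA, the TATA box, and no marked matches overlap. The Ngp stretch is chr9:110419558-110419807 (+), that of S100a8 is chr3:90668821-90669070 (+) and that of S100a9 is chr3:90695722-90695971 (-). The Clec4e stretch is chr6:123289872-123290121 (-) and that of Acod1 is chr14:103046762-103047011 (+).
Ngp: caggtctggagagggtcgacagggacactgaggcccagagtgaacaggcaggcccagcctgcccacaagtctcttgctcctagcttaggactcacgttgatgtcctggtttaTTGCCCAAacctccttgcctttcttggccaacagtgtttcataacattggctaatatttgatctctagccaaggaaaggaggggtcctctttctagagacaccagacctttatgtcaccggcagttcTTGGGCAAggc
S100a8: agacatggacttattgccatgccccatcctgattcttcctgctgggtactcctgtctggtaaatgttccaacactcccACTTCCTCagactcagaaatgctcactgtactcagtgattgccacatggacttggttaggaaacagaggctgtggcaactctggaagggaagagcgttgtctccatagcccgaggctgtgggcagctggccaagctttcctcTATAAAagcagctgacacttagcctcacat
S100a9: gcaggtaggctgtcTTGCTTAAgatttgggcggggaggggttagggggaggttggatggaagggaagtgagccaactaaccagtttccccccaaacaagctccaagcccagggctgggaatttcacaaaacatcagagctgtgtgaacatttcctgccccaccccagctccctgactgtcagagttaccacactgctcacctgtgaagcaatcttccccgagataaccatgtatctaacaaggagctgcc
Clec4e: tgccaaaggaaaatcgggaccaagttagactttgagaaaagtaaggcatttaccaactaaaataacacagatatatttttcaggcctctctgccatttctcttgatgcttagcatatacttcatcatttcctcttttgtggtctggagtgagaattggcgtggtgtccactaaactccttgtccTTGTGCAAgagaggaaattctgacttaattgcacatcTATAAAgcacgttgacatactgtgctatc
Acod1: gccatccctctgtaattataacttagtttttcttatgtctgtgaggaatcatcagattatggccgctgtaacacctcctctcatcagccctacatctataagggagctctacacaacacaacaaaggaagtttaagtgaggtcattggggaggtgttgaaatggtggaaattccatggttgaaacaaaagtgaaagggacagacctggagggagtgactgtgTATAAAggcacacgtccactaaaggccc

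The C/EBP letters, read by factors that drive granulocyte and macrophage genes, were found in 5 of the 10 promoters, those of Ngp, Ltf, S100a9, Retnlg and Clec4e, and in 9.56% of all 32851 promoter stretches of this length. Ngp had 2 such matches, the nearer one ending 4 bases before the gene start. The PU.1 letters were found in the S100a8 promoter alone among the members and in 2.44% of all stretches. TATAAA was found in S100a8, Clec4e and Acod1, in each case beginning 28 to 30 bases before the start, and in 12.4% of all stretches. The NF-kB motif, TGANTCA (AP-1) and TTCNNNGAA (STAT) were not found in any of the 10, against 1.41%, 6.75% and 7.02% of all stretches, which says only that these letters are not in these windows.

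Several members are neighbours in the genome. S100a8 (chr3:90669071-90670034) and S100a9 (chr3:90692630-90695721) lie 22.6 kb apart with 0 protein-coding genes between them, and Clec4d (chr6:123262107-123275268) and Clec4e (chr6:123281789-123289871) lie 6.5 kb apart, also with 0 between. Camp (chr9:109847377-109849456), Ngp (chr9:110419808-110423012) and Ltf (chr9:111019292-111042766) share a region of chromosome 9 but are separated by 8 and 20 protein-coding genes. Csf3r lies at chr4:126023441-126044975, Retnlg at chr16:48872608-48874498 and Acod1 at chr14:103047012-103056573. Csf3r overlaps the long non-coding RNA gene Gm32908 and Acod1 overlaps Gm41235, so reads of those overlaps could be assigned to either gene, while the other 8 members overlap no annotated gene.

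The libraries held between 20085976 and 22495408 estimated counts each. Of the 17846 genes, 13619 passed the filter on low counts and were tested, all 10 members among them, several only through their levels in the diet-fed groups. Levels are given in TPM, a read abundance scaled to a common total, which is per transcript length and can be set side by side between genes, and differences are fitted log2 fold changes from edgeR's quasi-likelihood test on the counts with TMM scaling, with Benjamini-Hochberg adjustment over all tested genes. A gene was called changed at an adjusted p below 0.05 and a log2 fold change beyond 1 in either direction, and p-values measure the spread between these mice. The TMM scaling factor of a library lay between 0.8 and 0.976 for chow-fed mice, between 1.09 and 1.23 for sedentary diet-fed mice and between 0.912 and 1.08 for trained ones. With library size alone the median of all tested genes moved from 0.01 to 0.36 for NASH against Control and from -0.03 to -0.24 for NASH+Exercise against NASH, on the log2 scale. TPM carry no such correction. Hepatocyte markers led by Alb were present in all 9 livers, with 0 of 8 called in any comparison.

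**Figure D1:**
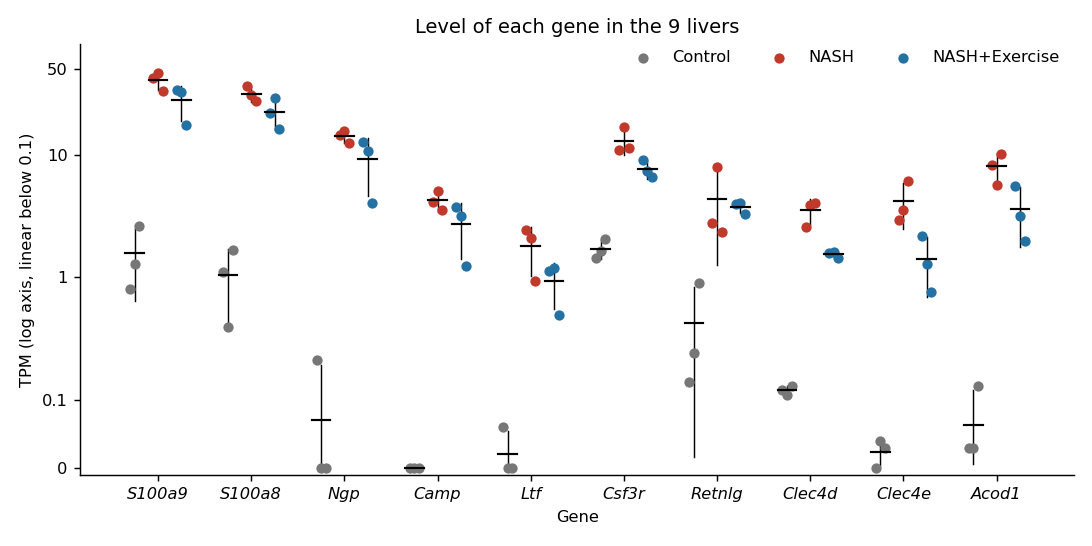
Level of each gene in every liver, in TPM on a log axis that is linear below 0.1. Points are single mice (3 a group), the bar is the group mean and the vertical line 1 SD either side, cut at 0. All 10 genes are higher in every mouse on the Ath diet than in every Control mouse, and the NASH and NASH+Exercise points overlap for 6 of the 10.

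Calprotectin transcripts were the most abundant of the 10 in the diet-fed livers. S100a9 stood at 0.81, 1.29 and 2.61 TPM in Control replicates 3, 4 and 29, at 41.86, 46.37 and 33.03 in NASH replicates 5, 19 and 20, and at 33.54, 32.25 and 17.55 in NASH+Exercise replicates 8, 18 and 22. S100a8 stood at 1.11, 0.39 and 1.66 TPM in Control, at 36.47, 30.68 and 27.31 in NASH and at 21.76, 28.95 and 16.28 in NASH+Exercise, with mice in the same order. For both subunits the Control mice were far below every diet-fed mouse, and the diet-fed groups overlapped. S100a9 rose by 4.26 (SE 0.33) and S100a8 by 4.49 (SE 0.37) on the log2 scale in NASH against Control, with adjusted p of 9.36e-06 and 1.35e-05 (edgeR). In bulk liver, more neutrophils, more RNA per neutrophil and expression in monocytes or macrophages cannot be told apart. Between NASH+Exercise and NASH the fitted differences were -0.26 (95% interval -0.81 to 0.29) for S100a9 and -0.20 (-0.78 to 0.38) for S100a8, with adjusted p of 0.662 and 0.767 (edgeR). Their ratio within a mouse, S100a9 over S100a8 in TPM, was 1.15 to 1.51 in NASH, against 1.08 to 1.54 in NASH+Exercise.

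The specific granule genes went from near absence to clear expression. Ngp stood at 0.21, 0 and 0 TPM in Control, at 14.57, 15.46 and 12.35 in NASH and at 12.64, 10.80 and 4.03 in NASH+Exercise. Camp had 0 counts in each Control mouse, and stood at 4.10, 5.10 and 3.51 TPM in NASH and at 3.75, 3.16 and 1.24 in NASH+Exercise. Ltf was lowest of the 3, at 0.06, 0 and 0 TPM in Control, 2.41, 2.09 and 0.93 in NASH, and 1.13, 1.18 and 0.49 in NASH+Exercise. Control replicate 3 held all 3 Control counts of Ngp and both of Ltf, and no diet-fed mouse overlapped a Control mouse for any of these genes. Against those few counts Ngp was 152 times higher in NASH (95% counting interval 51.7 to 738) and Ltf 70.1 times higher (19.1 to 583), and Camp was at least 22.7-fold higher, taking 3 counts over the Control group as the floor. These intervals and the floor cover counting error only. All 3 genes rose in NASH against Control, with edgeR adjusted p of 3.29e-05 for Ngp, 0.000277 for Camp and 0.00021 for Ltf. Without Control replicate 3 the calls held, against a group then at 0 for Ngp and Ltf, so that their fitted values of 10.47 and 8.77 set no size, and without Control replicate 29 the Ngp value was 6.50. Between NASH+Exercise and NASH the fitted log2 differences were -0.36 (-1.17 to 0.45) for Ngp, -0.37 (-1.23 to 0.50) for Camp and -0.67 (-1.65 to 0.30) for Ltf, and the groups overlapped for all 3.

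Csf3r, the growth factor receptor, already had a measurable level on chow. It stood at 1.45, 1.64 and 2.06 TPM in Control, at 10.98, 16.68 and 11.44 in NASH and at 9.08, 7.41 and 6.55 in NASH+Exercise. The 3 groups did not overlap, with NASH+Exercise between Control and NASH. It rose by 2.66 (SE 0.16) on the log2 scale in NASH against Control, with an edgeR adjusted p of 4.55e-06. Against NASH, the NASH+Exercise value was -0.53 (95% interval -0.85 to -0.21), with an unadjusted p of 0.00416 and an adjusted p of 0.156 (edgeR). Retnlg, the resistin-like protein, stood at 0.14, 0.24 and 0.89 TPM in Control, at 2.78, 7.89 and 2.35 in NASH and at 3.96, 4.02 and 3.29 in NASH+Exercise. NASH replicate 19 stood alone at the top, and the NASH+Exercise values fell inside the range of the NASH values. Retnlg rose by 2.91 (SE 0.61) in NASH against Control (edgeR adjusted p 0.00404), by 2.21 without NASH replicate 19 and by 3.79 without Control replicate 29. It was the single member fitted above 0 in NASH+Exercise against NASH, at 0.12 (-0.88 to 1.13), a sign that turned under other settings.

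The lectins and Acod1 were near absent on chow and clearly detected on the diet. Clec4d stood at 0.12, 0.11 and 0.13 TPM in Control, at 2.57, 3.91 and 4.07 in NASH and at 1.57, 1.60 and 1.45 in NASH+Exercise. Clec4e stood at 0, 0.04 and 0.03 TPM in Control, at 2.92, 3.51 and 6.08 in NASH and at 2.17, 1.29 and 0.76 in NASH+Exercise. Acod1 stood at 0.03, 0.03 and 0.13 TPM in Control, at 8.23, 5.69 and 10.12 in NASH and at 5.6, 3.19 and 1.99 in NASH+Exercise. In TPM the groups did not overlap for any of these genes, although NASH+Exercise replicate 8 (5.6) came close to NASH replicate 19 (5.69) for Acod1. All 3 rose in NASH against Control, by 4.38 (SE 0.37) for Clec4d, 6.99 (SE 0.65) for Clec4e and 6.56 (SE 0.55) for Acod1, with edgeR adjusted p between 1.73e-05 and 2.74e-05. Clec4e had 2 counts, Clec4d 6 and Acod1 6 in the Control group as a whole. By counting, the ratio of NASH to Control was 147 (40.3 to 1220) for Clec4e and 21.8 (9.83 to 60.3) for Clec4d. No such ratio was made for Acod1, whose fitted rise also rests on few Control counts. The Acod1 rise was 7.42 without Control replicate 29, which held its highest Control value. In NASH+Exercise against NASH the fitted values were -0.89 (95% interval -1.47 to -0.31) for Clec4d, -1.32 (-2.14 to -0.51) for Clec4e and -0.92 (-1.66 to -0.17) for Acod1. Their unadjusted p were 0.00625, 0.00461 and 0.0204, and none passed after adjustment, at 0.176, 0.159 and 0.247 (edgeR).

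Set side by side in TPM, the order of the 10 genes differed between chow and the diet. In Control the highest means were those of Csf3r (1.72 ± 0.31, SD, n = 3), S100a9 (1.57 ± 0.93) and S100a8 (1.05 ± 0.64), whose ranges overlapped. In NASH the order was S100a9 (40.4 ± 6.79), S100a8 (31.5 ± 4.63), Ngp (14.1 ± 1.60) and Csf3r (13.03 ± 3.17), then Acod1 (8.01 ± 2.22), with Retnlg, Camp, Clec4e and Clec4d between 3.52 and 4.34 and Ltf last at 1.81 ± 0.78. S100a9 and S100a8 overlapped each other, as did Ngp and Csf3r, but the lower of the first pair was above the higher of the second in every NASH mouse. In NASH+Exercise the first 4 places were the same, and Retnlg (3.76 ± 0.41) stood next to Acod1 (3.59 ± 1.84), overlapping it. The 10 genes summed to 3.74 to 7.51 TPM in Control, 111 to 137 in NASH, against 53.6 to 95.2 in NASH+Exercise, and the 2 calprotectin genes made up 54.3% to 65.2% of the sum in the diet-fed mice.

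The diet comparison asks which of the 10 genes differ in the steatohepatitis model. All 10 rose in NASH against Control, where 15.3% of the 13619 tested genes were called higher. The members were chosen with earlier results of these data known, so this count is a description and no independent test. Among the 9 members with Control counts the log2 fold changes ran from 2.66 for Csf3r to 7.10 for Ngp, and Camp, with 0 Control counts, has only its bound of at least 22.7-fold. The median of the 10 was 4.50 with Camp at that bound, or 5.20 with its fitted value, against a median of 0.01 over all tested genes. In TPM no NASH mouse overlapped a Control mouse for any member, as for 50.2% of tested genes in the same direction, and the same held for all 10 in TMM-scaled CPM (counts relative to library size), as for 27.4% of tested genes.

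**Figure D2:**
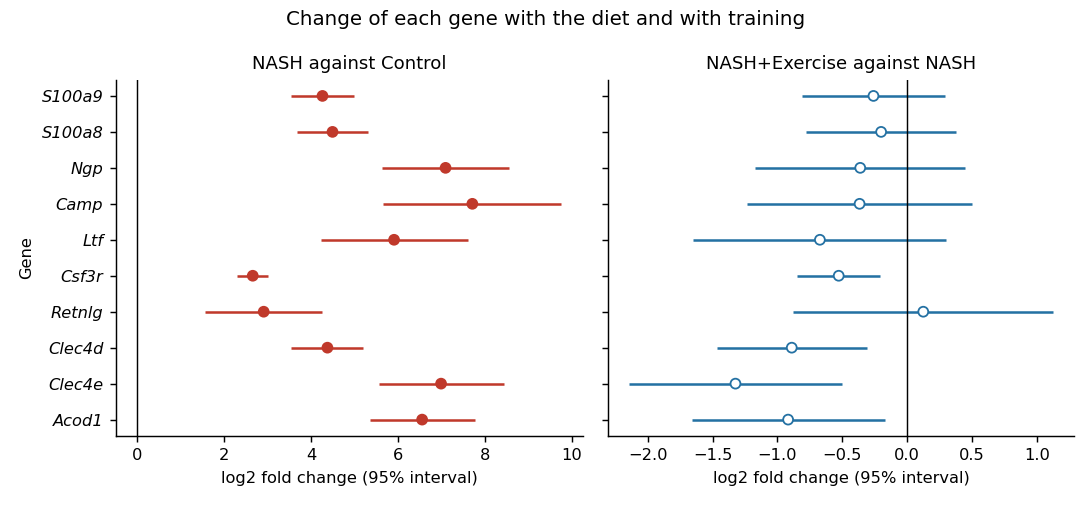
Fitted log2 fold change of each gene with its 95% interval, NASH against Control on the left and NASH+Exercise against NASH on the right, on separate axes. Filled points were called changed and open points were not. All 10 lie above 2 on the left, where the point of Camp, at 0 counts in Control, sets no size, and on the right 9 of 10 lie below 0.

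The training comparison asks which of them differ between trained and sedentary mice on the diet. Of the 10 members, 0 were called in NASH+Exercise against NASH in edgeR, where 0.14% of tested genes were called in either direction and 0.0367% lower. At an unadjusted p below 0.05, 4 members were lower, Csf3r, Clec4d, Clec4e and Acod1, against 10.7% of tested genes. Fitted values were below 0 for 9 of 10 members, against 54.9% of tested genes, and their median was -0.45, against -0.03 over all tested genes. In TPM, the groups did not overlap for those same 4 members, as for 37.6% of tested genes in the lower direction. In TMM-scaled CPM this held for 3 of them, Acod1 being the exception, as for 14.9% of tested genes. The 5 granule and calprotectin genes ran from -0.67 to -0.20, and the lectins and Acod1 from -1.32 to -0.89. Without NASH replicate 20 these ranges overlapped, with Ltf lowest at -0.96 against -0.91 for Clec4e, -0.72 for Clec4d and -0.67 for Acod1, and the difference between these 2 sets of genes was not tested. DESeq2 fitted to the 6 diet-fed mice called 1 member, Clec4e, at -1.28 (adjusted p 0.0262), and DESeq2 fitted to all 9 mice called 0.

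**Figure D3:**
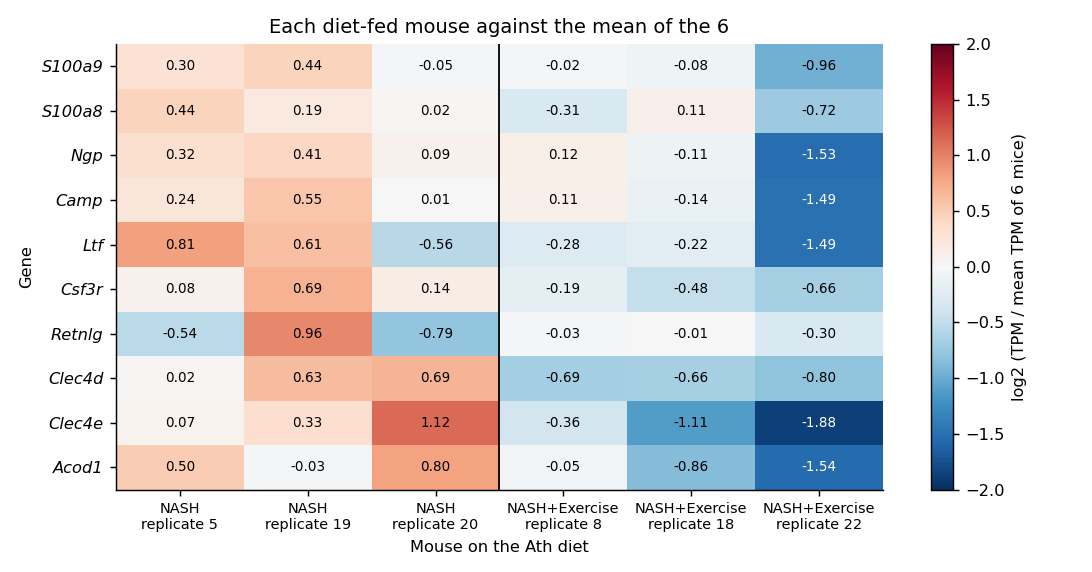
Level of each gene in each of the 6 mice on the Ath diet, as the log2 of its TPM over the mean of the 6. The black line parts NASH from NASH+Exercise. NASH+Exercise replicate 22 is lowest in 9 of the 10 rows, and NASH replicate 20 is highest for Clec4d, Clec4e and Acod1.

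Single mice weighed on the training comparison. By TPM, NASH+Exercise replicate 22 was the lowest of the 6 diet-fed mice for 9 of the 10 members. The exception was Retnlg, for which NASH replicate 20 was lowest. These ranks lack TMM scaling and can differ after it. Among the 6 mice the TMM factor was lowest in NASH+Exercise replicate 22 (0.912) and highest in NASH replicate 19 (1.23). In counts, Clec4d stood at 26, 28 and 27 in NASH+Exercise replicates 8, 18 and 22. Without replicate 22 the fitted values were -0.04 for Ngp, -0.06 for Camp, -0.07 for both S100a8 and S100a9 and -0.41 for Ltf. Those of Clec4d, Clec4e and Acod1 were -0.92, -1.08 and -0.68, and that of Csf3r was -0.48. The median of the 10 was then -0.24. The highest TPM among the 6 mice belonged to NASH replicate 19 for 5 members and to NASH replicate 20 for the lectins and Acod1. For S100a8 and Ltf it belonged to NASH replicate 5. The granule genes kept a steady ratio to calprotectin in the sedentary mice, with 26.9, 29.4 and 27.8 TPM of Ngp, Camp and Ltf per 100 TPM of S100a8 and S100a9 in NASH replicates 5, 19 and 20. In NASH+Exercise replicates 8, 18 and 22 it was 31.7, 24.7 and 17.0, so replicate 22 was low in granule transcripts also relative to calprotectin.

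Trained mice remained far above chow-fed mice. All 10 members rose in NASH+Exercise against Control, where 10.4% of tested genes were called higher. This comparison shares its Control mice with the diet comparison, so its values stand beside those above and are no second test of them. The log2 fold changes were 6.73 for Ngp, 5.24 for Ltf, 4.29 for S100a8, 4.0 for S100a9, 2.13 for Csf3r, 3.03 for Retnlg, 3.49 for Clec4d, 5.67 for Clec4e and 5.64 for Acod1. Their edgeR adjusted p ran from 1.73e-05 for Csf3r to 0.00441 for Retnlg. By counts, Ngp was 119 times (40.5 to 580), Ltf 43.9 times (11.9 to 368) and Clec4e 59.6 times (16.2 to 497) the Control level, and Camp was at least 17.7-fold higher. All 10 were above every Control mouse in TPM, as for 25.3% of tested genes. Without Control replicate 29, Retnlg was at 3.93 and Acod1 at 6.52, and without Control replicate 3, which left Ngp and Ltf at 0 in Control, their fitted values were 10.11 and 8.10.

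The other genes of these pathways were read from lists that leave out the 10 members and hold 141 genes, 123 of them tested. The lists, too, were chosen with earlier results of these data known. Several of their genes passed the filter on low counts only through the diet-fed groups, as Mpo did with 2 counts in Control. This favours a rise among the list genes tested. In NASH against Control 81 rose, a share of 65.9%, against 15.3% of all tested genes called higher. Only 1 fell, where 3.03% of tested genes were called lower. The median log2 fold change of the 123 was 2.51, against 0.01 over all tested genes. In NASH+Exercise against NASH 0 were called in edgeR, where 0.14% of tested genes were called in either direction. An unadjusted edgeR p below 0.05 was found for 37, counted in either direction. Of all tested genes 10.7% had one in the lower direction alone, a share that cannot be set against the 37. Of the 123, 95 were fitted below 0, against 54.9% of tested genes, and the median was -0.39, against -0.03. DESeq2 on all 9 mice called 2 in that comparison, Slpi at -1.36 (adjusted p 0.00435) and Cxcl1 at 1.86 (adjusted p 0.000349).

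**Figure D4:**
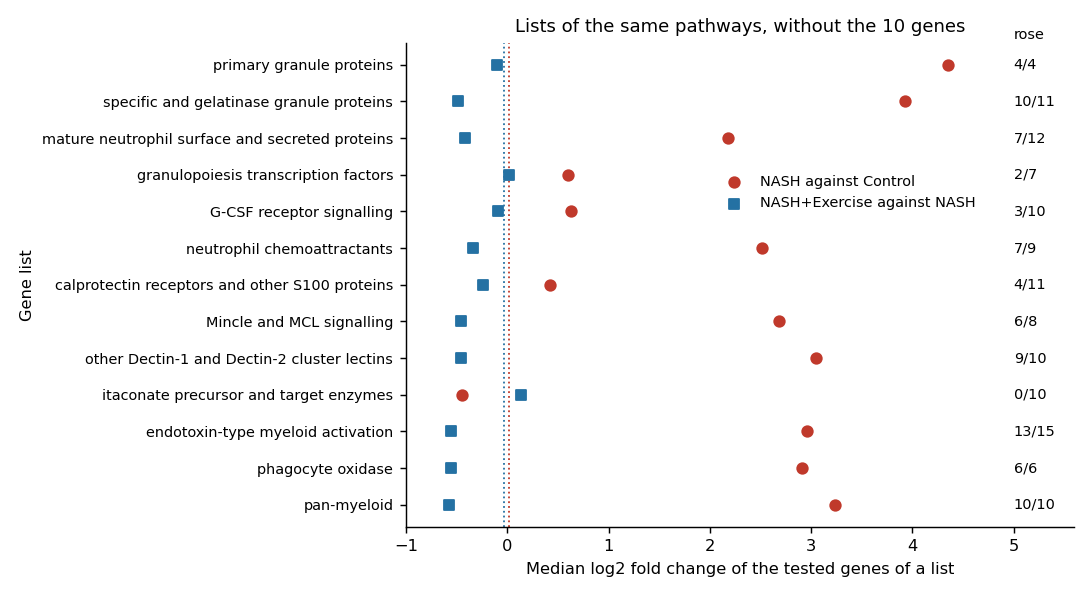
Median log2 fold change of the tested genes of each list, for NASH against Control (circles) and NASH+Exercise against NASH (squares), without the 10 members. Dotted lines are the medians of all tested genes, 0.01 and -0.03, and the column at the right gives how many of the tested genes rose in NASH. The primary granule list has the highest median, 4.35, over the 4 tested of its 8 genes, and the itaconate-related list lies below 0 in NASH.

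Other genes listed as granule proteins rose with the members. Of the primary granule list, 4 of 4 tested genes rose in NASH: Mpo (myeloperoxidase) by 6.07, Prtn3 (proteinase 3) by 5.04, Elane (neutrophil elastase) by 3.67 and Ctsc, which activates these proteases, by 1.36. Mpo had 2 counts in Control as a whole, and by counts it was 77.5 times higher in NASH (95% counting interval 21.2 to 645). Elane and Prtn3 had 6 and 7 counts in Control as a whole. Like Mpo, they passed the filter on low counts only through the diet-fed groups. Prtn3 was at 9.03 ± 2.41 TPM in NASH, against 16.5 ± 11.6 in NASH+Exercise, with overlapping groups. Of the specific and gelatinase granule list 10 of 11 rose, including Lcn2 (lipocalin 2) by 6.55, Slpi (a protease inhibitor) by 4.11, Lyz2 (lysozyme) by 3.97 and Hp (haptoglobin) by 1.26. Hp and Lcn2 are also made by hepatocytes, and Hp stood at 2927 TPM in Control and 9587 in NASH. Ctsc and Lyz2 already stood at 17.35 and 30.65 TPM in Control. All 7 monocyte markers and all 10 pan-myeloid genes rose in NASH as well. Which cells the transcripts of these granule lists came from was not tested. Slpi was at 10.9 ± 1.87 TPM in NASH, against 3.46 ± 0.92 in NASH+Exercise, without overlap, a fitted difference of -1.37 with an edgeR adjusted p of 0.0906.

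Markers of mature neutrophils did not all move with the members. Of the 12 tested genes of mature neutrophil surface and secreted proteins 7 rose and 1 fell, namely Hdc (histidine decarboxylase), by 1.54 on the log2 scale with overlapping groups. Fpr1, a receptor for bacterial peptides, rose by 2.36. Ly6g, the surface antigen used to sort mouse neutrophils, stood at 3.68 ± 0.51 TPM in Control, 7.49 ± 1.56 in NASH, against 6.76 ± 1.15 in NASH+Exercise, a fitted difference of 0.62 in NASH against Control (edgeR adjusted p 0.0593). Cxcr2, the receptor for neutrophil chemokines, stood at 3.56 ± 1.41, 3.28 ± 0.26 and 2.49 ± 0.81 TPM in the 3 groups, a fitted difference of -0.51 (edgeR adjusted p 0.12). The other fixed neutrophil markers, Mmp8 and Cd177, rose by 4.88 and 3.93 from Control levels of 0.02 and 0.05 TPM, Mmp8 from 2 counts, a ratio of 34.6 (9.29 to 290.0). Thus on chow Ly6g and Cxcr2 were above every one of the 10 members in mean TPM, while Ngp, Camp and Ltf were near 0. Wfdc21, the most abundant of this list at 663 TPM in Control, stood at -0.05 in NASH against Control. In Control, Wfdc21 and Hdc (27.05 TPM) were far above S100a9 (1.57 TPM), and which liver cells their transcripts came from was not tested.

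Upstream genes rose in part. Of 7 tested granulopoiesis transcription factors 2 rose, with Spi1 (PU.1) up by 2.91, while Cebpa and Cebpb, which hepatocytes also express at high levels, were at -0.46 and -0.40 and not called. Of 10 tested genes of G-CSF receptor signalling 3 rose, among them Socs3, its feedback inhibitor, by 1.27 (edgeR adjusted p 0.0395), and Jak1 and Stat3 were not called at 0.25 and 0.48. The ligand gene Csf3, named outside the naming rule after its values were seen, had 2 counts in Control, 1 in NASH, none in NASH+Exercise, and was not tested. Of 9 tested genes of neutrophil chemoattractants, their synthesis and their receptors 7 rose. The highest mean TPM over the 9 mice was that of Cxcl1, a ligand of Cxcr2. It stood at 1.53 ± 0.28 TPM in Control, 76.2 ± 6.57 in NASH, against 211 ± 134 in NASH+Exercise. Cxcl1 rose by 5.21 in NASH, and every trained mouse stood above every sedentary one on the diet, at a fitted 1.84 with an edgeR adjusted p of 0.128.

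Partners of calprotectin and of the lectins were mixed. Of 11 tested calprotectin receptors and other S100 genes 4 rose, S100a11 by 2.55, whereas the abundant S100a1 and S100a10 were not called at -0.40 and -0.19. Of 8 tested genes of Mincle and MCL signalling 6 rose, including Fcer1g, the gamma chain that carries the signal of both lectins, by 3.19, and Syk, the kinase it recruits, by 2.69. All 8 were fitted below 0 in NASH+Exercise against NASH, and 0 were called. Of 10 other lectins of the Dectin-1 and Dectin-2 clusters 9 rose, including Clec7a (Dectin-1) by 4.36 and Clec12a by 3.67, and Clec2d was not called at -0.40. None of the 10 genes listed for the supply or the targets of itaconate was called in NASH against Control. All 10 were nonetheless fitted below 0, with Sdhd, a subunit of succinate dehydrogenase, at -0.89. Their median was -0.44, and the hepatocyte markers were similar, with 7 of 8 fitted below 0 and a median of -0.42. Of the 15 tested genes of endotoxin-type myeloid activation 13 rose, including Cd14 by 3.63 and Irf1 by 1.38, and all 6 genes of the phagocyte oxidase rose, Cybb by 3.78. All 10 pan-myeloid genes rose as well, Tyrobp by 3.33.

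Markers of other blood and liver cells moved in the same comparisons, and their part in the values of the 10 members was not tested. All 7 monocyte markers rose in NASH, and the sum of their TPM was 4.13 to 10.3 in Control, 90.0 to 112 in NASH, against 25.8 to 55.9 in NASH+Exercise. In NASH+Exercise against NASH all 7 were fitted below 0 with a median of -1.09, and 0 were called, Ly6c2 being at -1.51 (edgeR adjusted p 0.0855) and Ccr2 at -1.67 (0.128). Of 7 markers of lipid-associated macrophages 6 rose, with sums of 58.1 to 112 TPM in Control, 446 to 1190 in NASH, against 257 to 375 in NASH+Exercise. Of 7 Kupffer cell markers 5 rose, with sums of 421 to 677 TPM in NASH, against 379 to 454 in NASH+Exercise and 76.1 to 147 in Control. All 7 tested markers of T and NK cells rose, and 0 of 5 tested B cell markers did. Of 8 erythroid markers 2 rose, and their sums overlapped, at 1170 to 1570 TPM in Control, 1340 to 2390 in NASH, against 1300 to 2160 in NASH+Exercise. Of 6 tested blood progenitor markers 2 rose, Cd34 and Flt3, by 1.85 and 2.58. Of the platelet markers 2 were tested and 0 called, and of the eosinophil, basophil and mast cell markers 1 was tested, Siglecf, which rose from 1 count in Control, a ratio of 46.8 (8.1 to 1880).

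Patterns most like those of 3 members were found among all tested non-member genes by the root-mean-square difference in mean-centred log2 CPM (prior count 2) over the 9 mice. Nearest to S100a8 were Clec4n (Dectin-2, 0.30), Tlr2 (Toll-like receptor 2, 0.34) and Cxcl2 (a neutrophil chemokine, 0.35). Nearest to Clec4e were Itgax (CD11c, 0.37), Ubd (a ubiquitin-like protein, 0.47) and Lgals3 (galectin 3, 0.55), and nearest to Acod1 were Apol10b (0.58), Itgax (0.63) and Ms4a4c (0.65). Itgax stood at 0.32 TPM in Control, 14.5 in NASH, against 6.49 in NASH+Exercise. Among the members themselves S100a8 and S100a9 were 0.40 apart, Csf3r and Clec4d 0.45, and Clec4e and Acod1 0.46. Distances of genes with few or 0 Control counts depend on the prior count, as for Camp and S100a9 (0.38) and for Ngp and Retnlg (1.77).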

How the data were processed

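RNA sequencing of 9 mouse livers, 3 per group and 1 library per mouse, was used as deposited. The authors deposited, per gene and mouse, an estimated count that is not normalized, FPKM, scaled to transcript length and library size (not used here), and TPM, scaled to length and a common total. The submitters' processing notes name HISAT2 2.1.0, Bowtie2 2.2.5, RSEM 1.2.8 and GRCm38.p6, without their roles. In the estimated counts 29.0% to 32.8% of values were not whole, and they were rounded. Of 428304 values that 1 table of all mice shares with the other tables, 0 differed. Symbols came from Entrez Gene identifiers through RefSeq (GRCm38.p6), and 17728 of 17846 matched.

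Counts were filtered with filterByExpr (10 counts, total 15) and fitted by group over all 9 mice with edgeR 4.0.16 in R 4.3.3 (TMM, robust quasi-likelihood test, Benjamini-Hochberg). The simulated NASH against Control comparison, on 13460 genes with log2 changes of 2, recovered 98% of changed genes, and 1.54% of its calls were false. It gave all genes the same relative spread between mice, and it simulated neither smaller changes nor the training comparison. DESeq2 1.42.0, limma 3.58.1 on log2 TPM, library-size scaling, other filters and leaving out each mouse were alternatives. The members and lists were chosen with earlier results of these data known. Named from each list were at most the 4 genes with the highest mean TPM over the 9 mice and any called in NASH+Exercise against NASH, and for S100a8, Clec4e and Acod1 the 3 nearest genes by pattern. Libraries held 20085976 to 22495408 counts each, and members with few counts also carry counting error.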

Additional observations from a re-analysis of the deposited data

How the results depend on the processing

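All 10 members stayed called in NASH against Control under every alternative run, and in NASH+Exercise against Control 2 calls were lost, Ltf at 0.90 (adjusted p 0.0158) with limma on log2(TPM + 1) and Camp, which did not pass the filter in the edgeR fit of those 6 mice. The pathway list genes called in NASH against Control went from 81 higher and 1 lower to between 73 and 88 higher, with 13 lower at adjusted p alone and 0 lower with either limma setting. In NASH+Exercise against NASH the number of members called went from 0 to 1 with DESeq2 on the 6 mice, and leaving out single mice gave 0. The number of pathway list genes called there went from 0 to 2 with DESeq2 on all 9 mice (Slpi and Cxcl1), 2 with DESeq2 on the 6 mice (Slpi and S100a4), 1 with limma on log2(TPM + 0.1) (Slpi) and 3 with limma on log2(TPM + 1) (Slpi, S100a6 and S100a11). Leaving out single mice gave 0 to 1, the 1 being Cxcl1 without NASH+Exercise replicate 8. S100a4 and S100a6 lie outside the naming rule and were named after their values were seen. The fitted value of Retnlg in that comparison turned below 0, to -0.11 with library size alone, to -0.025 with limma on log2(TPM + 1), to -0.088 without NASH replicate 5 and to -0.14 without NASH replicate 20, and it was 0.81 without NASH replicate 19. The cause was not tested. The fitted changes against Control of the genes with few Control counts were smaller with a pseudocount on TPM, as for Clec4e, which went from 6.99 to 2.29 with log2(TPM + 1). Depth limits Ngp, Camp, Ltf and Clec4e in Control, where the whole group held at most 3 counts of each. It also limits Clec4d, Acod1 and Retnlg, with 6, 6 and 9 counts in Control. No paired analysis was possible because the groups share no replicate numbers.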
